A study of Homo sapiens with 48 samples.

Results

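The 57 genes described here encode subunits of the mitochondrial respiratory chain that are made from nuclear DNA. They were chosen by gene symbol from the known composition of complexes I to V, out of 61815 gene entries, with earlier results of these data known. Complex I supplied 26 genes, complex II 4, complex III 7, complex IV 10 and complex V 10. All 57 passed the filter on low counts, which 20009 genes passed, and the lowest count of any of them in any library was 427.

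RNA was sequenced from 48 cultures of 22Rv1, a castration-resistant human prostate cancer cell line, and its derivatives, as 16 groups of 3 biological replicates. The study asked how blocking CDK8 and CDK19, the kinases of the Mediator complex, changed transcription. Rv1-WT was the parental line and Rv1-Luc expressed luciferase. Each was grown in fetal bovine serum (FBS) or in serum stripped with charcoal (CSS), a treatment that removes androgens and other small lipophilic molecules, with 0.1% DMSO as vehicle or 500 nM of the CDK8/19 inhibitor SNX631 for 72 hours. The remaining lines were grown in FBS with the same vehicle and inhibitor. All of these carried a double knockout of CDK8 and CDK19 and had a kinase put back by lentivirus: wild-type CDK8 in dKO-8, its kinase-dead mutant in dKO-8M, wild-type CDK19 in dKO-19 and its kinase-dead mutant in dKO-19M. Cultures in CSS had also gone through a passage in CSS beforehand and were plated at a higher density, so serum, passage and density cannot be told apart.

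The respiratory chain sits in the inner mitochondrial membrane. Complex I takes electrons from NADH and complex II from succinate, complex III passes them from ubiquinol to cytochrome c, complex IV hands them to oxygen, and complex V, the ATP synthase, makes ATP from the proton gradient that complexes I, III and IV build. Each complex except complex II also holds subunits encoded by mitochondrial DNA, which were not analysed here.

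Library totals ran from 13.2 to 31.5 M counts (M, mega), and the 57 genes took 0.896% to 1.13% of each library. Luminal prostate markers were present throughout (KRT18 at 385.0 to 836.6 CPM, counts scaled to a library of fixed size), although KLK3 stayed between 0.409 and 11.6 CPM. Summed over each list, leukocyte markers lay between 0.0738 and 1.48 CPM, endothelial markers between 0 and 0.987, fibroblast markers between 3.84 and 26.7, B and plasma cell markers between 0.261 and 29.2, and striated muscle markers between 41.2 and 77.6 CPM. Of the striated muscle markers, MB alone lay between 40.6 and 77.3 CPM. ACTA1 reached at most 1.27 CPM, and CKM, MYH7 and TNNT2 at most 0.205 CPM. CDK8 lay between 60.5 and 134.3 CPM in dKO-8 and dKO-8M and between 21.3 and 29.8 CPM in the other libraries. Under vehicle its mean was 68.7 CPM in dKO-8 and 122.6 CPM in dKO-8M. CDK19 lay between 298.4 and 519.4 CPM in dKO-19 and dKO-19M and between 101.3 and 281.1 CPM elsewhere. Under vehicle its mean was 510.4 CPM in dKO-19 and 332.0 CPM in dKO-19M. Knocked-out alleles can still be transcribed, so these levels check the added kinase and not the knockout. Replicate 1 of dKO-19M under vehicle stood apart: its median over the 57 genes was 0.31 above their mean over the 48 libraries on the log2 scale, against 0.05 in each of the other 2 replicates, and results that rest on it are given without it as well.

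Genes for respiratory subunits are known targets of NRF1, of ETS-family factors such as GABPA, and of YY1. Promoters from RefSeq (GRCh38.p14), 250 bases before to 50 bases after the start, were matched for 47 of the 57 genes, without NDUFB5, NDUFB9, NDUFS5, SDHC, UQCRB, CYC1, COX6C, ATP5F1B, ATP5F1D and ATP5MC3. They were searched on both strands for CGCATGCG (the NRF1 core), CCGGAAG (the ETS core) and AAGATGG (the YY1 core). The NRF1 core was present in 7 of the 47 (14.9%), against 2.19% of 27305 promoters of the same length. The ETS core was present in 16 (34.0%, against 10.7%) and the YY1 core in 12 (25.5%, against 6.06%). Shown first are the 120 bases before the start of the 3 matched genes with the largest falls in CSS described further on, with any of these motifs in capitals.
ATP5MC1, chr17:48892667-48892786, plus strand: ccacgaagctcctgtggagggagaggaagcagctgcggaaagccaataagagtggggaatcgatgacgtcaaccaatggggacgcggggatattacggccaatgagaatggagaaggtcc
NDUFB8, chr10:100529924-100530043, minus strand: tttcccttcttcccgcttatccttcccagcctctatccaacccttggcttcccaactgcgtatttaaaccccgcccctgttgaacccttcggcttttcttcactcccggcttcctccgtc
COX6B1, chr19:35648203-35648322, plus strand: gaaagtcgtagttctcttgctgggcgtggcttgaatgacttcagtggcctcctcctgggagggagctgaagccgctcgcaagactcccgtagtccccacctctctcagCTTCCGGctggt
ATP5MC1 and NDUFB8 held none of the motifs in this stretch and COX6B1 held an ETS core. For comparison, 4 genes with an NRF1 core in the stretch follow. ATP5PF held all 3 motifs, SDHD an NRF1 and an ETS core, and NDUFS7 and ATP5F1C an NRF1 core.
ATP5PF, chr21:25735055-25735174, minus strand: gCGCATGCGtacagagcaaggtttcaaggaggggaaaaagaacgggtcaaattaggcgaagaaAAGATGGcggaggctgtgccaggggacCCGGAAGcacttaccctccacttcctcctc
SDHD, chr11:112086753-112086872, plus strand: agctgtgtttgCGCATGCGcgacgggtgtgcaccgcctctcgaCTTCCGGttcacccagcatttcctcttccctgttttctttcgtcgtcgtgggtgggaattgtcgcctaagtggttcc
NDUFS7, chr19:1383787-1383906, plus strand: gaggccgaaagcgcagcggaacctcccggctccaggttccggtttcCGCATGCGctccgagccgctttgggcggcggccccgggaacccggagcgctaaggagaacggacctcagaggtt
ATP5F1C, chr10:7788057-7788176, plus strand: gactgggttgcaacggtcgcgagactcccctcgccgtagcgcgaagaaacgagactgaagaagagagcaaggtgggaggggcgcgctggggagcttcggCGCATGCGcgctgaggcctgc
In CSS against FBS in Rv1-WT under vehicle, the 7 genes with an NRF1 core had log2 fold changes from -0.50 to -0.03, with a median of -0.30. The 40 matched genes without it ranged from -1.10 to 0.16, with a median of -0.37. Medians with and without the ETS core were both -0.35, as were those with and without the YY1 core. A match gives letters in a window and not a bound site.

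Compared per length of the principal transcript, levels differed widely among the subunit genes. ATP5F1B, the catalytic beta subunit of the ATP synthase, had the highest mean level over the 48 libraries, at 1100 CPM per kilobase (2022 CPM), followed by COX4I1 at 388.7 and COX6A1 at 364.7 CPM per kilobase, both of complex IV. NDUFA9, an accessory subunit of complex I, had the lowest, at 7.48 CPM per kilobase. Its annotated transcript is long (8363 bases), so this low value depends on the transcript chosen.

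In Rv1-WT the subunit genes were lower in CSS than in FBS. Under vehicle 47 of the 57 fell and 1, NDUFS1, rose at a false discovery rate (FDR) under 0.05 by edgeR's quasi-likelihood test, while over all 20009 genes 23.1% fell and 21.8% rose. The median log2 fold change of the 57 was -0.35, against 0.01 over all genes, and their range was -1.10 to 0.16. By the limits the study used, an FDR under 0.01 and a fold change over 1.5, 13 fell, against 4.78% of all genes. The CSS and FBS libraries did not overlap for 52 of the 57 genes, against 51.9% of all genes. The share of the 57 in the library was 1.07% to 1.08% in FBS and 0.907% to 0.948% in CSS. In bulk RNA, fewer cells of a type and less RNA per cell cannot be told apart.

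**Figure D1:**
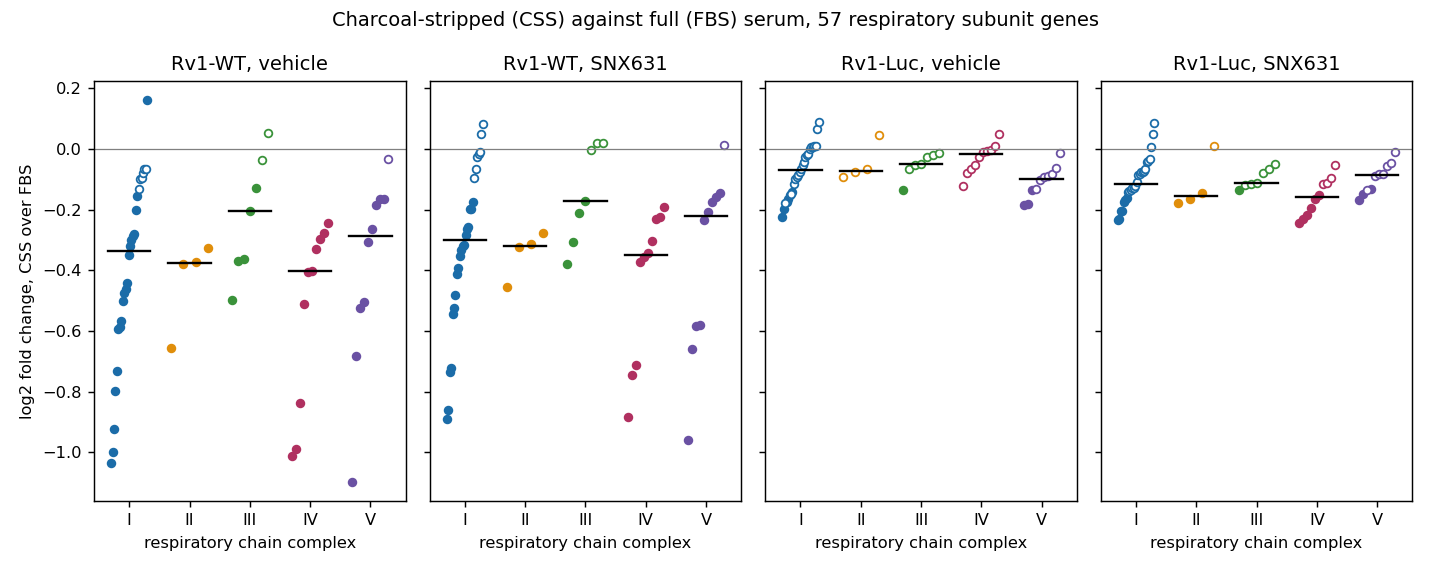
Log2 fold change of each of the 57 genes in CSS over FBS (vertical axis), by complex (horizontal axis), for Rv1-WT and Rv1-Luc under vehicle and SNX631; filled points passed FDR under 0.05, open points did not, and black lines are medians. In Rv1-WT the medians of all 5 complexes lie below 0 and single genes reach -1.10, while in Rv1-Luc no gene lies below -0.25.

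In complex I, 19 of 26 genes fell and NDUFS1 rose, with a median of -0.34. NDUFB8 (ENSG00000166136.16, chr10:100523740-100530000, minus strand, GRCh38), an accessory subunit of the membrane arm, was at 65.4, 66.7 and 76.0 CPM in FBS and at 31.9, 33.3 and 36.3 CPM in CSS. NDUFB6, another accessory subunit of that arm, was at 85.4, 84.8 and 87.5 CPM in FBS and at 41.1, 45.3 and 42.7 CPM in CSS. Every CSS library of either gene lay far below every FBS library. NDUFB8 fell by 1.03 on the log2 scale (SE 0.07, edgeR adjusted p = 3.73e-20), from 69.4 ± 5.79 CPM to 33.8 ± 2.23 CPM (SD, n = 3), and NDUFB6 fell by 1.00 (SE 0.06, edgeR adjusted p = 2.79e-21). NDUFA2, an accessory subunit of the matrix arm, was at 53.7 to 55.1 CPM in FBS and 26.5 to 31.4 CPM in CSS and fell by 0.92 (SE 0.06, edgeR adjusted p = 1.07e-18). Also past the limits of the study were NDUFB3, which fell by 0.80, NDUFA1, which fell by 0.73, NDUFA3, which fell by 0.59, and NDUFS5, which fell by 0.59, all accessory subunits. NDUFB8 had fractional counts, which the deposited table gives where a read fits several entries, in 77.1% of libraries.

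Core and accessory subunits of complex I were also set apart, in a grouping made after the values were seen and given with no test. The 6 genes of the conserved core (NDUFS1, NDUFS3, NDUFS7, NDUFS8, NDUFV1 and NDUFV2) ran from -0.29 to 0.16 with a median of -0.10, and 2 of them fell. The 20 accessory genes ran from -1.03 to -0.06 with a median of -0.47, and 17 fell. NDUFS1 (ENSG00000023228.14, chr2:206114817-206159603, minus strand), the largest core subunit, was at 257.4, 261.4 and 261.3 CPM in FBS and at 295.7, 284.6 and 291.8 CPM in CSS. These groups did not overlap, CSS being higher, and NDUFS1 rose by 0.16 (SE 0.04, edgeR adjusted p = 3.54e-04). With a correction for transcript length, chosen after seeing the data, its log2 fold change was -0.01 (edgeR adjusted p = 0.815). NDUFV1, which holds the NADH site, was at 180.2 to 190.4 CPM in FBS and 169.5 to 177.8 CPM in CSS, with a log2 fold change of -0.09 that did not pass (edgeR adjusted p = 0.0908).

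All 4 complex II genes fell. SDHA (ENSG00000073578.18, chr5:218241-256700, plus strand), the flavoprotein that oxidises succinate, was at 121.6, 115.1 and 120.5 CPM in FBS and at 73.3, 75.9 and 77.9 CPM in CSS. Its CSS libraries all lay below its FBS libraries, and it fell by 0.65 (SE 0.04, edgeR adjusted p = 6.55e-21). SDHC, a membrane anchor, fell by 0.37 (SE 0.04), SDHD, the other anchor, by 0.38 (SE 0.05), and SDHB, the iron-sulfur protein, by 0.33 (SE 0.05). SDHA shares sequence with pseudogenes, which took 35.6% of the counts of the gene and its pseudogenes together. With these added, SDHA still fell, by 0.55 on the log2 scale.

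Of the 7 complex III genes 5 fell, none past the limits of the study, and the median was -0.21. UQCRH, the hinge protein beside cytochrome c1, was at 203.5 to 213.8 CPM in FBS and 143.9 to 150.6 CPM in CSS and fell by 0.50 (SE 0.05, edgeR adjusted p = 1.31e-12). UQCRC2, a core protein, fell by 0.37 (SE 0.04), and UQCRQ, a small subunit, fell by 0.36 (SE 0.06). CYC1, the cytochrome c1 that hands electrons to cytochrome c, was at 298.9, 285.9 and 294.6 CPM in FBS and at 303.8, 302.0 and 307.0 CPM in CSS. UQCRC1, the other core protein, was at 302.2 to 320.2 CPM in FBS and 294.1 to 316.6 CPM in CSS. Neither CYC1 (log2 fold change 0.05, edgeR adjusted p = 0.379) nor UQCRC1 (-0.03, adjusted p = 0.553) passed.

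All 10 complex IV genes fell, with a median of -0.40. COX6B1 (ENSG00000126267.11, chr19:35648223-35658861, plus strand), which lies on the intermembrane side of the complex, was at 140.9, 150.8 and 141.8 CPM in FBS and at 67.5, 73.6 and 74.0 CPM in CSS. COX7A2, a small membrane subunit, was at 179.5, 173.8 and 170.1 CPM in FBS and at 82.9, 89.2 and 91.7 CPM in CSS. The CSS libraries lay close together in both genes and did not overlap with FBS. COX6B1 fell by 1.01 (SE 0.06, edgeR adjusted p = 7.52e-19) and COX7A2 fell by 0.99 (SE 0.07, edgeR adjusted p = 3.77e-16). COX7B, also past the limits of the study, fell by 0.84 (SE 0.06). The smallest fall among the 10 was that of COX6C, by 0.24 (SE 0.05).

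Of the 10 complex V genes 9 fell, with a median of -0.29. ATP5MC1 (ENSG00000159199.14, chr17:48892765-48895871, plus strand), which encodes subunit c of the membrane ring, was at 95.7, 101.2 and 91.9 CPM in FBS and at 44.6, 42.5 and 47.7 CPM in CSS. Its CSS level was 0.468 times its FBS level with no overlap, the largest fall of the 57 genes in this comparison (log2 fold change -1.10, SE 0.06, edgeR adjusted p = 1.94e-22). ATP5MC3, another gene for the same mature protein, was at 126.5 to 143.8 CPM in FBS and 79.8 to 88.6 CPM in CSS and fell by 0.68 (SE 0.05, edgeR adjusted p = 7.00e-18). ATP5PD, of the peripheral stalk, fell by 0.52 (SE 0.06). In a grouping made after the values were seen, the F1 part (ATP5F1A, ATP5F1B, ATP5F1C and ATP5F1D) ran from -0.31 to -0.03 with a median of -0.21. The 4 peripheral stalk genes, grouped in the same way, ran from -0.52 to -0.16 with a median of -0.34. ATP5F1B was at 2134, 2181 and 2139 CPM in FBS and at 1892, 1859 and 2011 CPM in CSS, groups that did not overlap, and fell by 0.16 (SE 0.03, edgeR adjusted p = 8.04e-05).

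**Figure D2:**
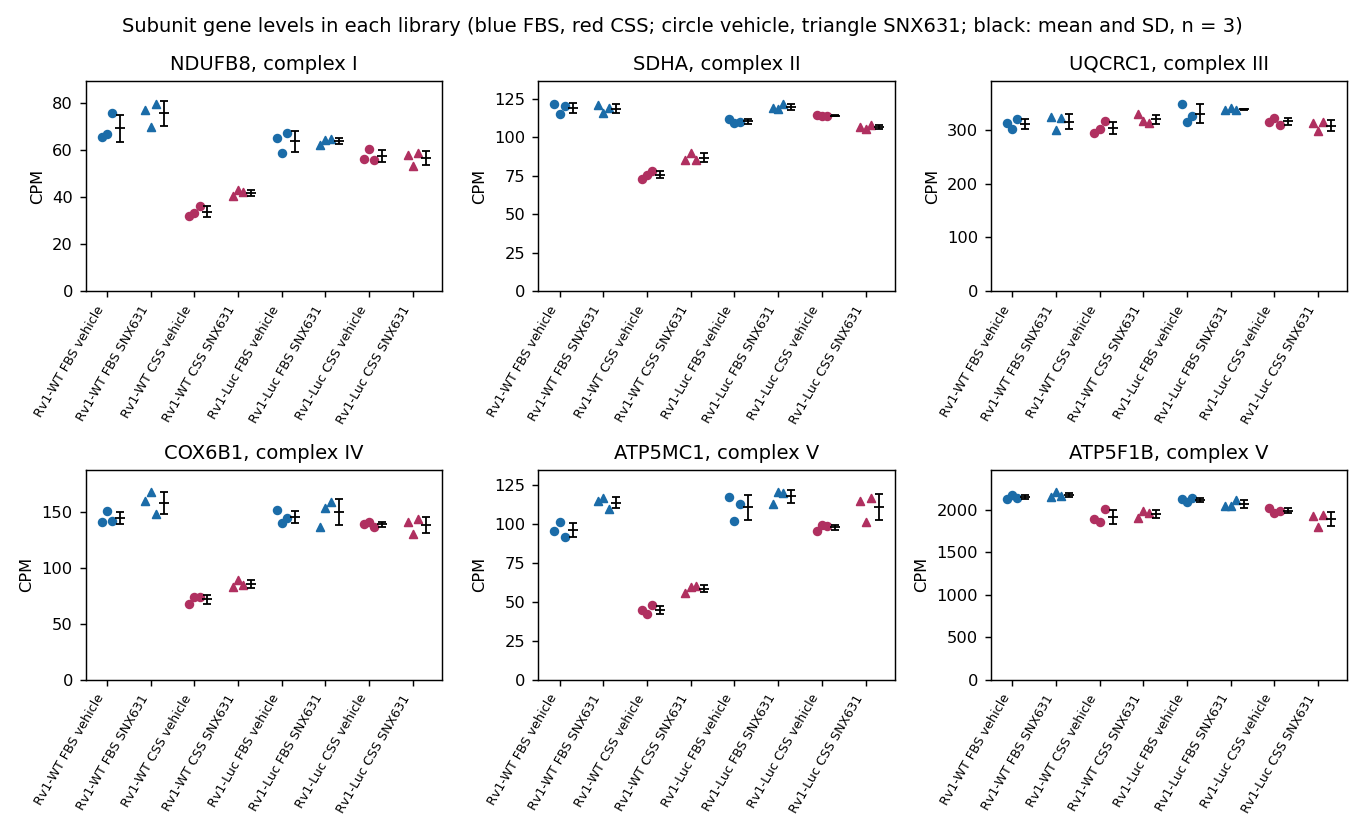
Level of 6 genes in CPM (vertical axes) in each library of Rv1-WT and Rv1-Luc; blue is FBS, red is CSS, circles are vehicle, triangles are SNX631, and black marks give the mean and SD of 3 libraries. NDUFB8, SDHA, COX6B1 and ATP5MC1 are lower in the 6 CSS libraries of Rv1-WT than in all others plotted, whereas UQCRC1 stays between 294.1 and 349.7 CPM and ATP5F1B between 1803 and 2211 CPM.

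Falls in this comparison were more frequent among highly expressed genes and short transcripts in general. Among the 5676 genes at or above the lowest mean level of the 57 (43.8 CPM), 42.5% fell, with a median of -0.06. In that set, 67.4% of the genes with transcripts under 1000 bases fell (186 of 276, median -0.28), and so did 85.2% of the subunit genes of that length (23 of 27, median -0.40). From 1000 to under 2000 bases the shares were 59.0% (median -0.18) and 82.4% (14 of 17, median -0.33). From 2000 bases on they were 37.6% (median -0.02) and 76.9% (10 of 13, median -0.26). With offsets for transcript length, added after seeing the data, 43 of the 57 fell. The share of all genes that fell with these offsets was not worked out, so this count has nothing to stand beside. The part of transcript length in the result was otherwise not tested. Of the 36 genes with fractional counts in at most 20% of libraries, 31 fell and 9 passed the limits of the study.

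**Figure D3:**
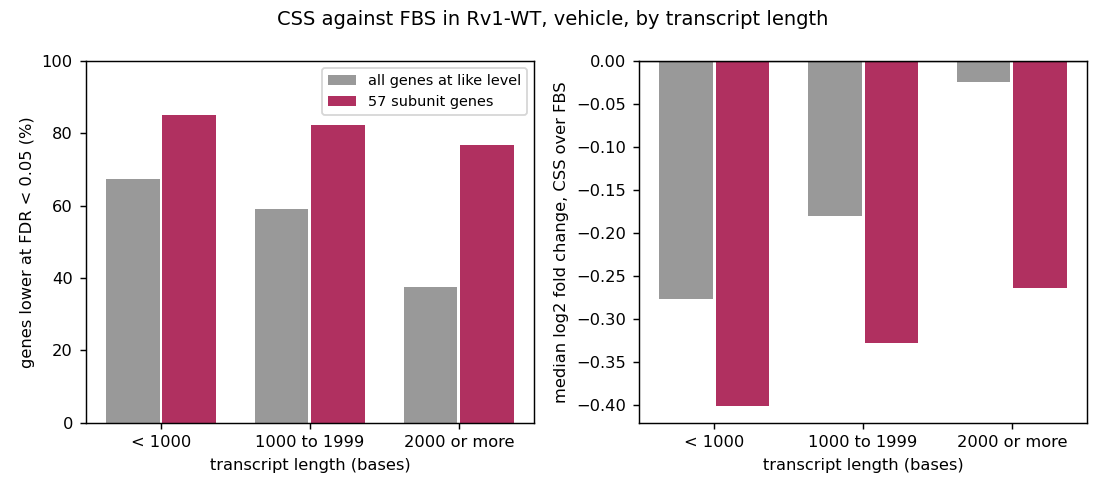
Share of genes lower in CSS than in FBS in Rv1-WT under vehicle, in percent, and median log2 fold change (vertical axes), by length of the principal transcript in bases (horizontal axis), for all genes at or above the lowest mean level of the 57 (the 57 included) and for the 57 alone. In each class the 57 have the larger share and the lower median: 85.2% against 67.4% under 1000 bases and 76.9% against 37.6% from 2000 bases on.

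Under SNX631 the serum comparison in Rv1-WT used other libraries, and 46 of the 57 genes fell, with a median of -0.30, while 21.1% of all genes fell and 19.5% rose. All 46 were among the 47 that fell under vehicle (97.9% of these), the remaining one being UQCRFS1, the Rieske iron-sulfur protein. By the limits of the study 9 fell, against 2.97% of all genes, and all 9 were among the 13 under vehicle (69.2%). Groups did not overlap for 47 of the 57, against 48.5% of all genes. By complex, 19, 4, 4, 10 and 9 genes of complexes I to V fell. ATP5MC1 was at 115.2, 116.6 and 109.7 CPM in FBS and at 55.9, 59.3 and 60.4 CPM in CSS. These did not overlap, and it fell by 0.96 (SE 0.06, edgeR adjusted p = 1.58e-20). NDUFB6 fell by 0.89, COX6B1 by 0.88 and NDUFB8 by 0.86 on the log2 scale, while NDUFS1 had a log2 fold change of 0.08 and did not pass (edgeR adjusted p = 0.0821).

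In Rv1-Luc under vehicle 9 of the 57 genes fell in CSS, against 6.67% of all genes (7.33% rose), with a median of -0.07. Among the 5676 genes at or above the lowest mean level of the 57, 12.6% fell, close to the 15.8% of the 57. None of the 57 passed the limits of the study. ATP5MC1 was at 117.7, 102.0 and 112.8 CPM in FBS and at 95.8, 99.1 and 98.6 CPM in CSS. Its groups did not overlap, and it fell by 0.18 (SE 0.05, edgeR adjusted p = 0.0172), a call that was lost without FBS replicate 1 or 3 or CSS replicate 1. SDHA was at 112.0, 109.3 and 110.1 CPM in FBS and at 114.4, 113.9 and 114.0 CPM in CSS, slightly higher in CSS, and did not pass (edgeR adjusted p = 0.471). NDUFA9 had the lowest p of the 57 and fell by 0.23 (SE 0.04, edgeR adjusted p = 1.59e-04). It had fractional counts in 100% of libraries. The count of 9 was 3 without FBS replicate 3 or without CSS replicate 3, 4 without CSS replicate 2 and 5 without FBS replicate 1.

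Under SNX631 in Rv1-Luc 20 genes fell in CSS, against 6.61% of all genes (6.08% rose), with a median of -0.12. COX8A, of complex IV, fell by 0.25 (SE 0.05, edgeR adjusted p = 6.47e-04) and SDHA by 0.17 (SE 0.04, edgeR adjusted p = 0.00123). COX8A had fractional counts in 66.7% of libraries. With its pseudogenes added SDHA did not pass (log2 fold change -0.05). The count of 20 was 4 without CSS replicate 2, 5 without FBS replicate 3 and 10 without FBS replicate 2.

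The difference between the serum effects under vehicle was tested directly, as Rv1-Luc minus Rv1-WT. At FDR under 0.05 it passed as positive for 39 of the 57 genes and as negative for 1, NDUFS1. Over all genes 18.7% and 15.4% passed. The median difference of the 57 was 0.30. By the limits of the study 11 were positive, against 4.61% of all genes. Among genes at or above the lowest mean level of the 57, 1992 of 5676 passed as positive at FDR under 0.05 (median difference of the set 0.05). With transcripts under 1000 bases 181 of 276 passed as positive (median 0.29), beside 21 of the 27 subunit genes of that length (median 0.40). From 2000 bases on 1390 of 4483 passed as positive (median 0.01), beside 7 of 13 (median 0.18). By complex, 16, 4, 3, 10 and 6 genes of complexes I to V passed at FDR under 0.05 with a positive difference. The difference was 0.94 for COX6B1 (SE 0.09, edgeR adjusted p = 1.17e-12), 0.92 for ATP5MC1 (SE 0.08, edgeR adjusted p = 1.09e-13) and 0.89 for NDUFB8 (SE 0.09, edgeR adjusted p = 3.42e-12). SDHA had the lowest p, with a difference of 0.70 (SE 0.05, edgeR adjusted p = 6.71e-16). For NDUFS1 it was -0.21, and with offsets for transcript length -0.05, which did not pass. Rv1-Luc libraries were deeper (19.5 to 27.3 M counts) than those of Rv1-WT (13.2 to 18.2 M), and depth and line cannot be told apart. Unscaled counts of genes whose symbols begin like those of immunoglobulin genes also differed. They were 846.5 to 2112 per library in Rv1-Luc and 340.8 to 513.3 in Rv1-WT. Other genes can share such symbols, and the part of these counts in the result was not tested.

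Other genes of the same machinery were taken from lists, whose counts stand beside 23.1% lower over all genes and 42.5% lower at or above the lowest mean level of the 57. Of 23 further nuclear subunits, 20 fell in CSS in Rv1-WT under vehicle (median -0.40), 6 of them past the limits of the study, among them ATP5MF (-0.79, SE 0.07), ATP5MK (-0.69, SE 0.06) and NDUFAB1 (-0.61, SE 0.06). NDUFA4L2, a paralog of a complex IV subunit known as a hypoxia-induced gene, fell by 1.15 (SE 0.14). Of 46 assembly factors, 22 fell and 4 rose (median -0.14). COX17, a copper chaperone for complex IV, fell by 0.90 (SE 0.07) and FOXRED1, a complex I assembly factor, by 0.69 (SE 0.05), whereas COX19, another complex IV assembly factor, rose by 0.82 (SE 0.06). Of 13 tricarboxylic acid cycle genes 6 fell and 1 rose (median -0.07), and of 12 electron carriers and dehydrogenases that feed ubiquinone 5 fell and 1 rose (median -0.07).

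Among 14 regulators of respiratory genes, 6 fell and 5 rose in CSS in Rv1-WT under vehicle. PPARGC1A, which encodes the coactivator PGC-1alpha, rose by 1.19 (SE 0.08, edgeR adjusted p = 1.67e-18), and NRF1, the factor whose core motif was searched, rose by 0.77 (SE 0.06, edgeR adjusted p = 6.81e-17), both opposite in sign to most of the subunit genes. In the difference Rv1-Luc minus Rv1-WT both were negative, PPARGC1A at -1.33 (SE 0.12) and NRF1 at -0.79 (SE 0.08).

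**Figure D4:**
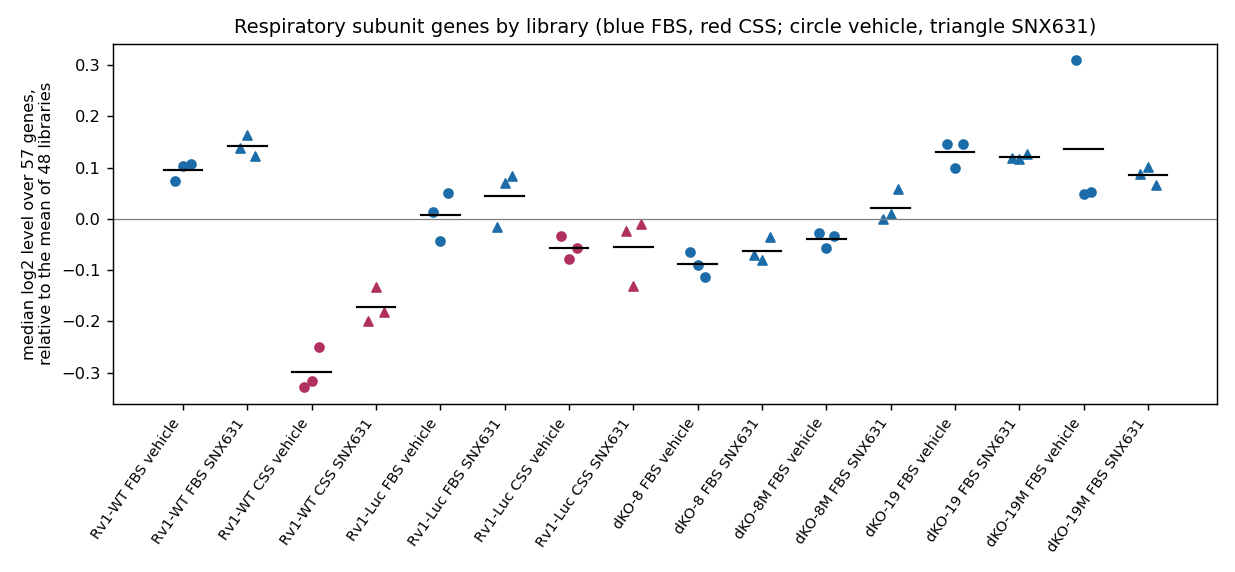
Median log2 level of the 57 genes in each library relative to their mean over 48 libraries (vertical axis), by group (horizontal axis). The 3 CSS vehicle libraries of Rv1-WT are lowest, from -0.33 to -0.25, and dKO-19M vehicle replicate 1 is highest, at 0.31.

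For SNX631 against vehicle, log2 fold changes of the 57 genes lay between -0.22 and 0.38 over the 8 comparisons, each with its own vehicle libraries, and none passed the limits of the study. In Rv1-WT in CSS 21 rose and 0 fell at FDR under 0.05, against 14.2% and 12.2% of all genes, with a median of 0.11. The vehicle libraries here are also the CSS side of the serum comparison under vehicle, so that fall and this rise are not independent. By complex, 7 of 26, 3 of 4, 2 of 7, 5 of 10 and 4 of 10 genes of complexes I to V rose. ATP5MC1 was at 44.6, 42.5 and 47.7 CPM under vehicle and at 55.9, 59.3 and 60.4 CPM under SNX631. COX7A2 was at 82.9, 89.2 and 91.7 CPM under vehicle and at 108.7, 116.1 and 113.1 CPM under SNX631. Neither gene overlapped between the groups, and both stayed below all their FBS libraries. ATP5MC1 rose by 0.38 (SE 0.06, edgeR adjusted p = 3.63e-06) and COX7A2 by 0.36 (SE 0.07, edgeR adjusted p = 8.81e-05). UQCRC2 rose by 0.24 (SE 0.04), NDUFB8 by 0.30 (SE 0.07), NDUFV1 by 0.21 (SE 0.05) and SDHA by 0.20 (SE 0.04). Among all genes at or above the lowest mean level of the 57, 1252 of 5676 rose and 1117 fell. In that set, 65 of 276 genes with transcripts under 1000 bases rose (median 0.07), beside 8 of the 27 subunit genes of that length (median 0.12). From 1000 to under 2000 bases 229 of 888 rose (median 0.04), beside 5 of 17 subunit genes (median 0.07). From 2000 bases on 949 of 4483 rose (median -0.01), beside 8 of 13 (median 0.15).

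In the other 7 comparisons few of the 57 passed. In FBS these were 4 in Rv1-WT, all higher, against 14.5% of all genes in either direction, led by ATP5MC1, which rose by 0.24 (SE 0.06, edgeR adjusted p = 0.00163). In Rv1-Luc in FBS 3 rose and 1 fell, against 20.3% of all genes, and in Rv1-Luc in CSS 4 rose and 7 fell, against 23.9%. In dKO-8, 4 rose and 1 fell, against 13.5% of all genes, and in dKO-19, 2 rose and 5 fell, against 20.6%. In dKO-8M, 1 passed, NDUFA2, which rose by 0.23 (SE 0.06, edgeR adjusted p = 0.0401), against 0.485% of all genes, and its call was lost when any library of that comparison was left out. Of the 57, 50 had a positive log2 fold change there (median 0.06, against 0.02 in dKO-8), beside 9936 of all 20009 genes. An edgeR unadjusted p under 0.05 was reached by 15 of the 57, beside 1910 of all genes. Groups did not overlap for 29 of the 57, beside 4192 of all genes. In dKO-19M the signs went the other way: 13 of the 57 were positive and 44 negative (median -0.06), beside 10013 positive of all 20009 genes. With single libraries left out that median ran from -0.12 to 0.05. Groups did not overlap for 1 of the 57, beside 3117 of all genes. In dKO-19M edgeR passed 0, against 2.41% of all genes, with 12 at an unadjusted p under 0.05 (2951 of all 20009 genes) and 0 by DESeq2. There 7 fell without vehicle replicate 2, 3 fell without vehicle replicate 3, and 1 passed without vehicle replicate 1, SNX631 replicate 1 or SNX631 replicate 2.

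The remaining counts also moved with single libraries. In Rv1-WT in FBS the 4 genes were 1 without vehicle replicate 1, SNX631 replicate 2 or SNX631 replicate 3, and 2 without vehicle replicate 2. In Rv1-Luc in FBS the 4 were 2 without vehicle replicate 1 and 1 without SNX631 replicate 3, and in CSS the 11 were 6 without vehicle replicate 2 and 7 without SNX631 replicate 3. In dKO-8 the 5 were 1 to 3 whichever library was left out. In dKO-19 the 7 were 2 without vehicle replicate 1 or SNX631 replicate 1, and 4 without vehicle replicate 2, vehicle replicate 3 or SNX631 replicate 2.

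Across the 8 comparisons, as a listing made after the values were seen, ATP5MC1 rose in 4 (Rv1-WT in FBS and CSS, Rv1-Luc in CSS, and dKO-8). SDHD rose in 4 (Rv1-WT in CSS, Rv1-Luc in FBS and CSS, and dKO-8), COX6C, COX7B and SDHC rose in 3 each, and 25 of the 57 genes passed in none. SDHD in Rv1-Luc in FBS was at 87.2, 89.5 and 87.2 CPM under vehicle and at 108.5, 107.4 and 107.5 CPM under SNX631. These did not overlap, and it rose by 0.29 (SE 0.05, edgeR adjusted p = 2.52e-06). SDHD had fractional counts in 79.2% of libraries. In dKO-19, ATP5F1B was at 2415, 2352 and 2416 CPM under vehicle and at 2037, 2144 and 2093 CPM under SNX631. These did not overlap either, and it fell by 0.20 (SE 0.03, edgeR adjusted p = 1.32e-05).

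Differences between SNX631 effects passed for few genes. For CSS minus FBS, SDHA alone passed in Rv1-WT, at 0.20 (SE 0.06, edgeR adjusted p = 0.03), and in Rv1-Luc, at -0.21 (SE 0.05, edgeR adjusted p = 0.0432), against 3.13% and 0.51% of all genes. With the SDHA pseudogenes added neither passed. In Rv1-WT 0 genes passed without replicate 1 or 3 of FBS vehicle, 2 or 3 of FBS SNX631, 1 or 2 of CSS vehicle, or 2 of CSS SNX631, and in Rv1-Luc 0 passed without any one library other than replicate 1 of FBS vehicle or replicate 2 of FBS SNX631. For Rv1-Luc minus Rv1-WT in FBS edgeR passed 0 of the 57, against 1.48% of all genes. An unadjusted p under 0.05 was reached by 2 (2372 of all 20009 genes), and DESeq2 passed 0. For dKO-8 minus dKO-8M edgeR passed 0, against 6.20% of all genes. An unadjusted p under 0.05 was reached by 2 (3677 of all 20009 genes), and DESeq2 passed 0. For dKO-19 minus dKO-19M, ATP5F1B passed at -0.21 (SE 0.05, edgeR adjusted p = 0.00242) and NDUFB3 at 0.28 (SE 0.09, edgeR adjusted p = 0.0491), against 9.87% of all genes. Without dKO-19M vehicle replicate 1 ATP5F1B was at -0.26 and passed, while NDUFB3 was at 0.14 and did not, and 4 genes passed in all. NDUFB3 also did not pass without replicate 1 or 2 of dKO-19 vehicle, 2 or 3 of dKO-19 SNX631, or any replicate of dKO-19M SNX631. For dKO-19 minus dKO-8, ATP5F1B passed at -0.16 (SE 0.05, edgeR adjusted p = 0.0374), against 4.77% of all genes, and was lost without any one library other than replicate 2 of dKO-19 under vehicle or SNX631.

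Kinase-dead and active lines were compared under vehicle. In dKO-8M against dKO-8, 10 of the 57 genes were higher and 2 lower, against 14.1% and 16.3% of all genes, with a median of 0.07. ATP5MC1 was at 86.2, 87.2 and 84.8 CPM in dKO-8 and at 103.5, 103.6 and 107.4 CPM in dKO-8M. Its groups did not overlap, and it was higher in dKO-8M by 0.28 (SE 0.06, edgeR adjusted p = 3.99e-05). UQCRB, a small subunit of complex III, was higher by 0.25 (SE 0.05), ATP5F1A, the alpha subunit of the F1 head, by 0.18 (SE 0.04) and SDHD by 0.18 (SE 0.05). The 12 genes were 4 without dKO-8 replicate 3, 5 without dKO-8M replicate 1 and 7 without dKO-8 replicate 2 or dKO-8M replicate 3.

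In dKO-19M against dKO-19, 11 were higher and 11 lower, against 15.6% and 17.7% of all genes. The 11 higher ones rested on 1 library: without dKO-19M replicate 1, 0 were higher and 25 lower, with a median of -0.10. ATP5F1B was at 2415, 2352 and 2416 CPM in dKO-19 and at 2107, 1888 and 1872 CPM in dKO-19M. These dKO-19 libraries gave the highest of the 16 group means for ATP5F1B and also served its SNX631 results in dKO-19 above. CYC1 was at 443.6, 407.5 and 439.5 CPM in dKO-19 and at 375.8, 317.2 and 317.9 CPM in dKO-19M. In both genes all dKO-19M libraries lay below all dKO-19 libraries, with replicate 1 the nearest to them. The log2 difference was -0.29 for ATP5F1B (SE 0.03, edgeR adjusted p = 4.77e-10) and -0.35 for CYC1 (SE 0.05, edgeR adjusted p = 4.97e-09). For ATP5F1A it was -0.27 (SE 0.04) and for NDUFS1 -0.23 (SE 0.04). These are separately made lines with unlike RNA levels of CDK8 or CDK19, so line, kinase level and kinase form cannot be told apart.

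In FBS under vehicle 21 of the 57 genes were lower in Rv1-Luc than in Rv1-WT and 7 higher, against 28.4% and 24.1% of all genes, with a median of -0.07. COX6A1, of complex IV, was at 255.8, 247.0 and 254.5 CPM in Rv1-WT and at 179.8, 170.7 and 187.3 CPM in Rv1-Luc. NDUFS1 was at 257.4, 261.4 and 261.3 CPM in Rv1-WT and at 189.2, 215.2 and 196.1 CPM in Rv1-Luc. Both were lower in every Rv1-Luc library, with log2 differences of -0.49 for COX6A1 (SE 0.05, edgeR adjusted p = 1.88e-12) and -0.38 for NDUFS1 (SE 0.04, edgeR adjusted p = 1.38e-12). COX6A1 had fractional counts in 79.2% of libraries. COX6C was higher by 0.25 (SE 0.05). All 4 complex II genes were lower, SDHC at -0.28 and SDHD at -0.27, but SDHA changed sign with its pseudogenes added, from -0.11 to 0.14. None of the 57 passed the limits of the study.

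**Figure D5:**
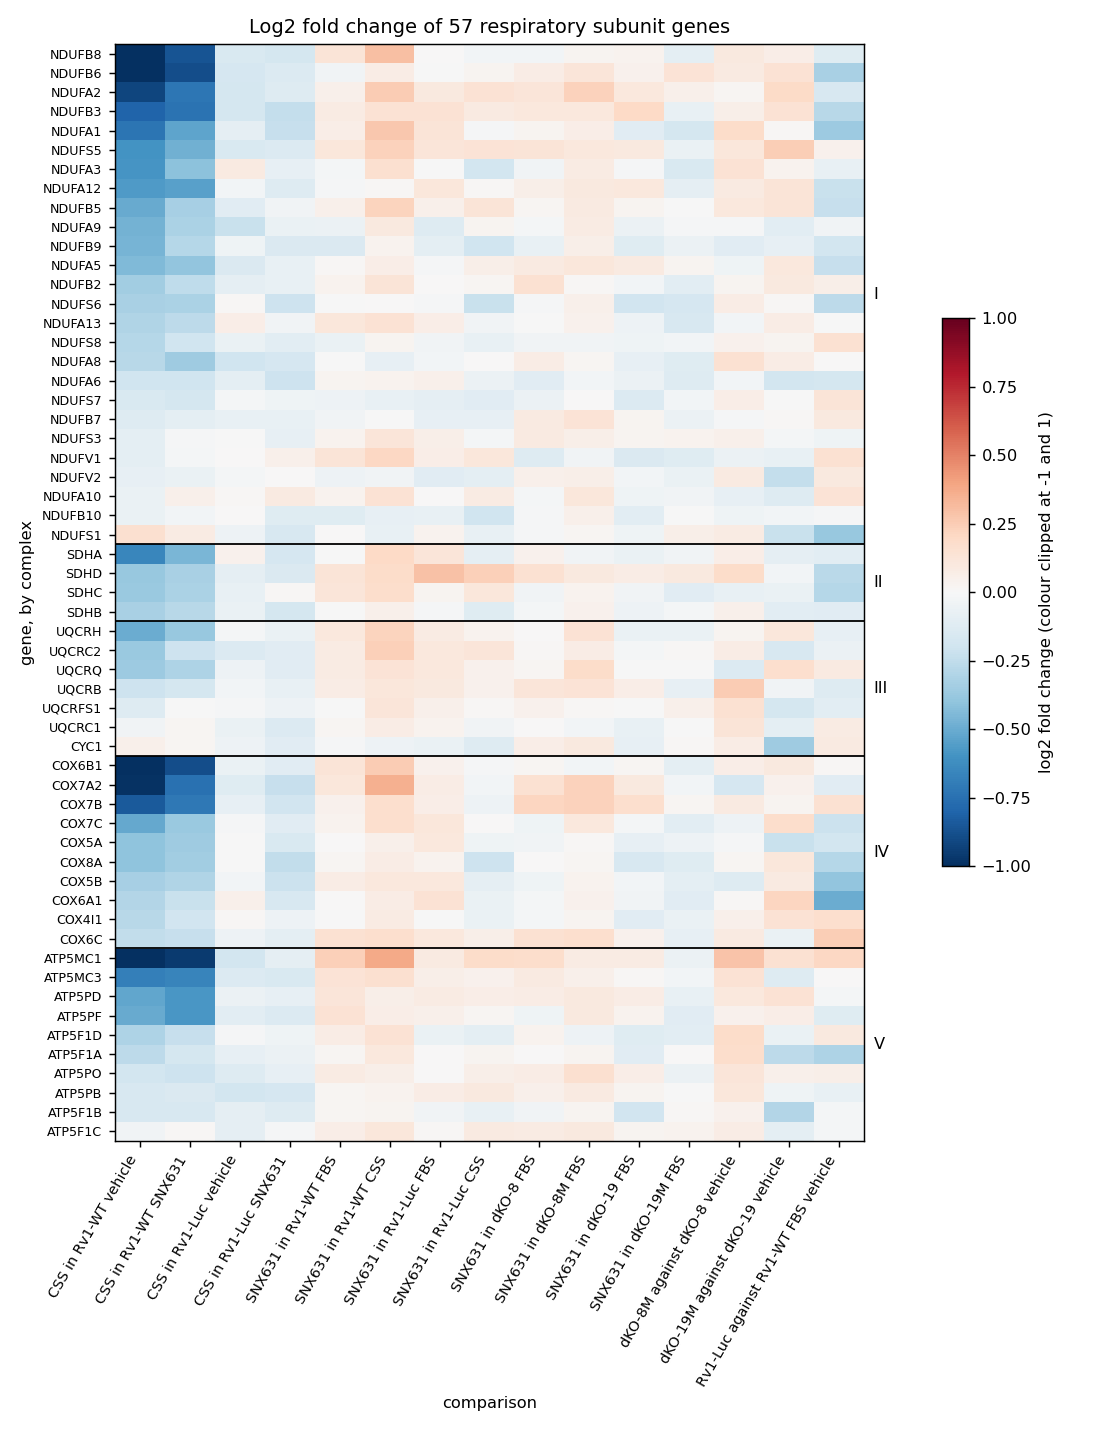
Log2 fold change (colour, clipped at -1 and 1) of each of the 57 genes (vertical axis, by complex) in 15 comparisons (horizontal axis). The darkest falls are in CSS against FBS in Rv1-WT, among them ATP5MC1 at -1.10 and NDUFB8 at -1.03 under vehicle, whereas the 8 SNX631 comparisons stay between -0.22 and 0.38.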

How the data were processed

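RNA from 48 cultures was sequenced as directional libraries. The authors deposited 1 table of expected counts per gene, with fractions where reads were shared between entries, and no normalization. Per the submitters' processing notes, cutadapt 2.8, STAR 2.7.2b and featureCounts (Subread 2.0.3) were used, with GRCh38.p13 and GRCm39 listed. The annotation release behind the counts is not given in the sources used here.

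Expected counts were rounded to whole numbers. Genes were filtered with filterByExpr (minimum count 10), which left 20009, and scaled by TMM. One quasi-likelihood model (edgeR 4.0.16, R 4.3.3, robust) was fitted to all 48 libraries with 1 mean per group (32 residual degrees of freedom). It gave two-sided tests for 15 pairs of groups and 7 differences between effects, adjusted by Benjamini-Hochberg over all genes in each comparison. The script was tested on simulated data. Levels are TMM-scaled CPM. Transcript lengths are those of the principal transcript of GENCODE release 29. Depth (13.2 to 31.5 M counts) limits precision, and every member had at least 427 counts in each library.

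The members and lists were chosen with earlier results of these data known. Named genes were members past the limits of the study (at most the 10 with the lowest p per comparison), up to 3 members per complex with the lowest p, and the highest and lowest levels. The groupings by role, NDUFA1, NDUFA3 and NDUFS5, genes that did not pass, and the smallest falls were chosen after their values were seen. NRF1 is also named as the factor of a searched motif.

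Alternatives were other size factors (RLE, or library size only), no filter, DESeq2 1.42.0, own libraries only, pseudogene counts added, a replicate block, each library left out, and, chosen after seeing the data, offsets for transcript length or GC content. Deviations of libraries with the same replicate number correlated between -0.091 and 0.157 (median 0.0031), and in 0 comparisons were all 3 over 0.1, so the numbers were not taken as pairs. Mitochondrially encoded subunits were not analysed here.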

Additional observations from a re-analysis of the deposited data

Results flagged for a closer look

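The difference between the CSS effects in Rv1-Luc and Rv1-WT under vehicle passed edgeR's test for 40 of the 57 genes. Of those also past the limits of the study, the difference was 0.94 for COX6B1, 0.92 for ATP5MC1, 0.89 for NDUFB8, 0.86 for COX7A2, 0.83 for NDUFB6, 0.76 for COX7B, 0.75 for NDUFA2, 0.70 for SDHA, 0.68 for NDUFA3, 0.64 for NDUFA1 and 0.62 for NDUFB3 on the log2 scale.

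The SNX631 effect on SDHA differed between CSS and FBS in both lines, with a value of 0.20 for Rv1-WT and -0.21 for Rv1-Luc. Neither passed with its pseudogenes added. The SNX631 effect on ATP5F1B differed by -0.21 between dKO-19 and dKO-19M and by -0.16 between dKO-19 and dKO-8, both with the same dKO-19 libraries. That on NDUFB3 differed by 0.28 between dKO-19 and dKO-19M, a call lost without dKO-19M vehicle replicate 1. No formal test for single libraries far from their group was run, since groups held 3, although dKO-19M vehicle replicate 1 stood apart by its median.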

How the results depend on the processing

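For serum in Rv1-WT under vehicle the count stayed within 1.5 times the reported one under all alternatives run. With 1 gene higher and 47 lower as reported, the counts were 1 and 47 with DESeq2, with RLE factors, with pseudogenes added and with the replicate block, 1 and 46 without the filter, 1 and 49 with own libraries only, 2 and 43 with library size only or with length offsets, and 3 and 46 with GC offsets. Of these 48 calls, 4 were lost with library size only, 4 were lost and 1 changed sign with length offsets, and 1 each was lost without the filter and with GC offsets. The replicate block moved no count of the 57 genes by over 1.5 times, and of 283 calls on single genes it kept 281 and lost 2.

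Counts of genes that passed moved by over 1.5 times as follows. For SNX631 in Rv1-WT in FBS the 4 became 1 without the filter, 12 with own libraries only, 2 with DESeq2 and 7 with length offsets. In Rv1-Luc in FBS the 4 became 2, 1 and 11 without the filter, with own libraries only and with length offsets. In dKO-8 the 5 and in dKO-19 the 7 became 14 each with own libraries only. In dKO-8M the 1 became 2 with library size only, 4 without the filter, 14 with own libraries only, and 3 with DESeq2 or length offsets. In dKO-19M the 0 became 1 without the filter, with length offsets or with GC offsets. For dKO-8M against dKO-8 the 12 became 31 with own libraries only and 24 with length offsets, and for dKO-19M against dKO-19 the 22 became 6 with own libraries only. Of the differences, SNX631 by serum in Rv1-WT became 0 with library size only or pseudogenes added and 2 with own libraries only. That in Rv1-Luc became 0 with RLE, library size only, no filter, pseudogenes added or own libraries only. The difference dKO-8 minus dKO-8M became 6, dKO-19 minus dKO-19M became 0 and dKO-19 minus dKO-8 became 6 with own libraries only, and the last became 0 with library size only. The cause was not tested. By the limits of the study 13 genes passed for CSS in vehicle-treated Rv1-WT and 9 in SNX631-treated Rv1-WT, 11 passed in Rv1-Luc minus Rv1-WT, and 0 in every other comparison.

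With library size only, higher and lower calls became 18 and 8 for dKO-19M against dKO-19, 11 and 18 for Rv1-Luc against Rv1-WT, 7 and 1 for SNX631 in dKO-19, 6 and 0 for SNX631 in dKO-8, and 9 and 6 for SNX631 in Rv1-Luc in CSS. Signs changed for SDHA in Rv1-Luc against Rv1-WT (0.14 with pseudogenes added), NDUFS1 in CSS in Rv1-WT (-0.014 with length offsets) and NDUFS8 in Rv1-Luc against Rv1-WT (-0.021 with GC offsets).

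With each library left out in turn, the counts ran from 46 to 48 for CSS in Rv1-WT under vehicle, 43 to 46 under SNX631, 3 to 10 for CSS in Rv1-Luc under vehicle, 4 to 22 under SNX631, and 37 to 40 for their difference under vehicle. For SNX631 they ran from 1 to 4 in Rv1-WT in FBS, 14 to 23 in CSS, 1 to 6 in Rv1-Luc in FBS, 6 to 10 in CSS, 1 to 3 in dKO-8, 0 to 2 in dKO-8M, 2 to 6 in dKO-19 and 0 to 7 in dKO-19M. They ran from 4 to 8 for dKO-8M against dKO-8, 16 to 25 for dKO-19M against dKO-19 and 23 to 31 for Rv1-Luc against Rv1-WT. For the differences in SNX631 effects they were 0 to 1 by serum in either line, 0 for Rv1-Luc minus Rv1-WT and for dKO-8 minus dKO-8M, 1 to 4 for dKO-19 minus dKO-19M and 0 to 1 for dKO-19 minus dKO-8.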
